A study of Mus musculus with 12 samples.

Results

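Conventional CD4+ T cells (Tcon) of the spleen were compared with Tcon of the lymph node. The comparison used 6 of the 12 RNA sequencing libraries of the series, 3 from each organ, chosen by the cell type and tissue in their labels, and covered all 9886 genes of the deposited Tcon table. All mice carried B6.Cg-Foxp3tm2Tch/J (FOXP3-IRES-GFP), a Foxp3 reporter allele that adds GFP to cells expressing the regulatory T cell factor FOXP3. In each organ 1 library came from mice given vehicle (DMSO in the library titles) and 2 came from mice given 25 mg/kg SAH-FOXP3(229-259)C, a stapled FOXP3 peptide, injected into the peritoneum daily for 2 days. The labels call the cells naive and do not give the animals' age. Nor do they tell if each library was made from its own mouse, or if 1 mouse gave both organs. The p-values below therefore weigh differences against the variation among 6 libraries, part or all of which may be technical. The other 6 libraries hold regulatory T cells (Treg) of the same organs and treatments and are used here only for comparison.

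T cells that have not met antigen move between blood, spleen and lymph nodes, entering lymph nodes with the help of CCR7 and leaving along sphingosine-1-phosphate. The spleen filters blood and has no lymphatic inflow, whereas lymph nodes also receive cells and signals from tissues. Effector and memory T cells carry receptors for inflamed tissue such as CXCR3 and CXCR6, and innate-like T cells such as NKT cells carry natural killer (NK) cell receptors under the transcription factor PLZF (Zbtb16).

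Values are CPM, the authors' read counts scaled to sequencing depth with a further factor per library, and are given in each organ in the order vehicle, SAH, SAH. Libraries are numbered 1 to 3 in lymph node and 4 to 6 in spleen, in that same order, so 1 and 4 are vehicle. Differences are log2(CPM + 1) of spleen minus lymph node, a scale on which the fold change of scarce transcripts is compressed. A gene was called where its adjusted p from limma (Benjamini-Hochberg over all genes) was below 0.05. Reads in listed genes ranged from 36442420 to 48888678 per Tcon library, and correlations between any pair of the 6 libraries were 0.987 or higher. In bulk RNA, fewer cells of a type and less RNA per cell cannot be told apart.

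The labelled identity was checked first. Cd4 was 1002, 1018 and 967 CPM in lymph node and 1010, 947 and 1005 in spleen, and Cd3e, a chain of the T cell receptor complex, was 344, 357 and 324 against 343, 324 and 324. Foxp3 was low in both organs, at 21.8, 23.5 and 24.9 CPM against 19.6, 21.1 and 22.6. None of these 3 genes was called. Ccr7, carried by naive and recirculating cells, was abundant on both sides, at 587, 742 and 861 CPM in lymph node and 732, 637 and 765 in spleen (adjusted p = 0.944). The T cell receptor constant region genes Trac, Trbc1 and Trbc2 are not rows of the table and were not analysed here.

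Of the 9886 genes, 468 were called (4.73% of genes tested), 324 of them higher in spleen (3.28%) and 144 higher in lymph node (1.46%). These shares are the background for the counts of called genes in each list below. The spleen side was also the side of large differences, with 87 of the 93 genes called past 2-fold. The median difference was 0.51 among genes called higher in spleen, -0.311 among those called higher in lymph node and -0.00187 over all genes. Libraries of the organs did not overlap in 437 of the 468 called genes, beside 19.3% of all genes tested. Every gene in the table reached 1 CPM in at least 3 libraries, so 35 genes are in it only through the 3 spleen libraries and 2 only through the 3 lymph node libraries. All 37 were called, and counts over listed genes carry that selection.

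**Figure D1:**
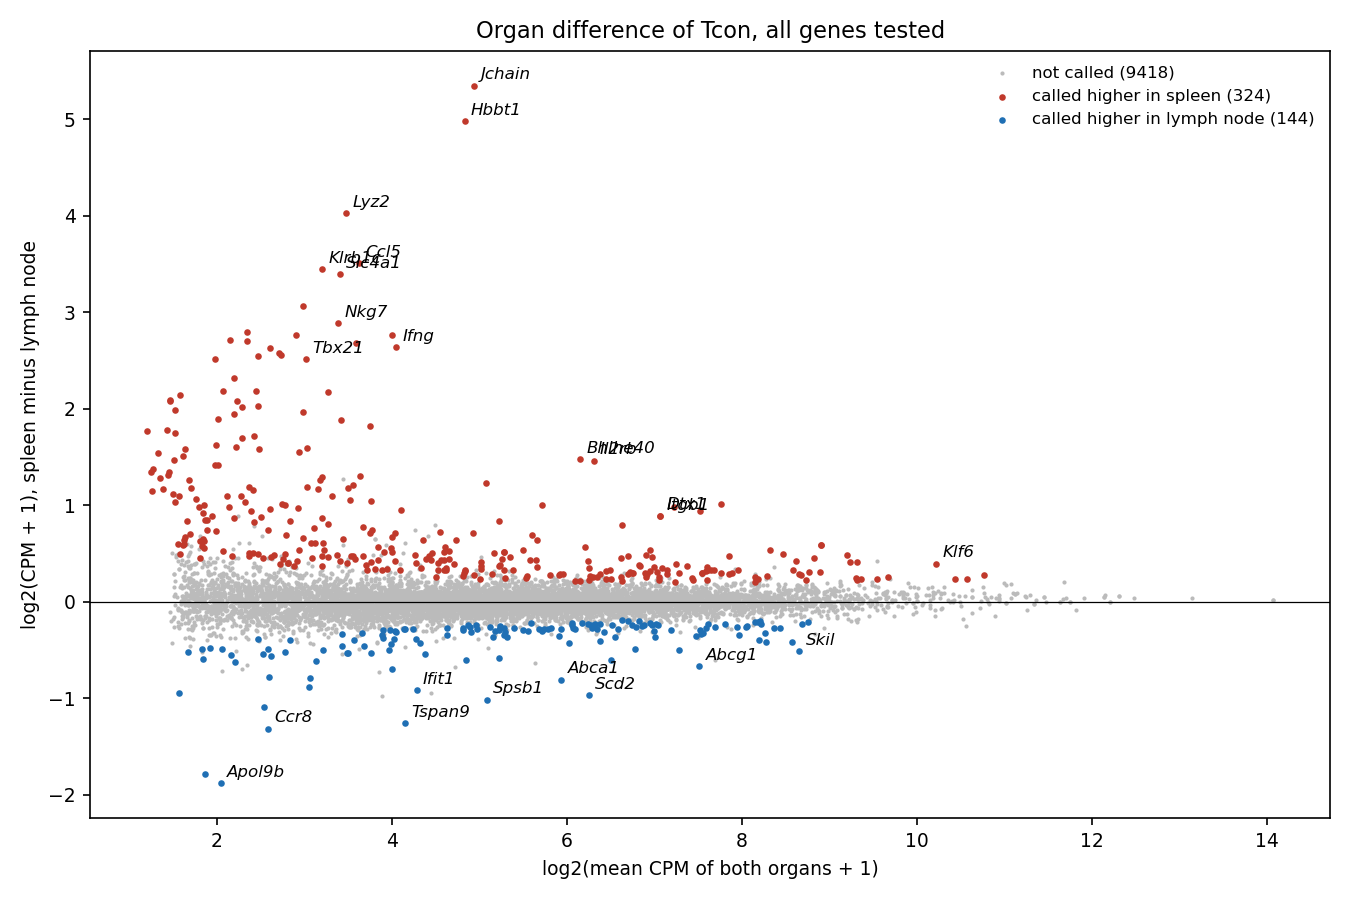
Each point is 1 of the 9886 genes, with its mean level in both organs on the x axis and its difference, spleen minus lymph node in log2(CPM + 1), on the y axis. The 324 genes called higher in spleen reach a difference of 5.35 (Jchain), while the 144 called higher in lymph node reach -1.88 (Apol9b), and most of the large spleen differences are at low mean levels.

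Genes of type 1 effector T cells were higher in spleen. Ifng, the cytokine interferon gamma, was 3.07, 4.29 and 3.47 CPM in lymph node and 30.4, 28.7 and 23.9 in spleen, a difference of 2.64 (95% interval 2.37 to 2.90, adjusted p = 1.64e-06). Tbx21, which encodes T-bet, the transcription factor of type 1 helper cells, was 1.41, 1.73 and 1.10 CPM against 14.9, 12.9 and 10.6, a difference of 2.51 (2.22 to 2.81, adjusted p = 3.43e-06). In both genes all 3 spleen libraries lay well above all 3 lymph node libraries, with the vehicle library highest in spleen. Of the receptor chains for interleukin-12 and interleukin-18, Il12rb2 was higher in spleen by 1.62, Il12rb1 by 1.00 and Il18rap by 2.19. Il18r1, the other and more abundant interleukin-18 receptor chain, named after its values were seen, was not called (68.9, 66.2 and 72.0 CPM against 69.0, 79.5 and 84.3, adjusted p = 0.231). Eomes, the relative of T-bet, was higher by 0.87 (6.37, 5.6 and 4.59 CPM against 10.8, 12.3 and 9.65). Of the 19 listed genes of helper cell lineages, 8 were called, all higher in spleen, beside 3.28% of all genes tested. Gata3 and Bcl6, the factors of type 2 and follicular helper cells, were not called. Without library 5, 1 member was called higher in lymph node.

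Among 31 listed genes of effector and memory T cells, 24 were called and all 24 were higher in spleen. The median difference of the 31 was 0.468, against -0.00187 over all genes, and 1 of the 31 (Lgals3) is in the table only through the spleen libraries. Ccl5, a chemokine that attracts T cells, was 0.400, 2.18 and 0.766 CPM in lymph node and 23.7, 21.3 and 20.1 in spleen, a difference of 3.51 (3.01 to 4.01). Il2rb, the shared beta chain of the interleukin-2 and interleukin-15 receptors, was far more abundant, at 37.0, 48.3 and 38.7 CPM against 127, 105 and 112 (1.46, 1.24 to 1.69, adjusted p = 1.62e-05). Itgb1, the integrin beta 1 chain, was 83.6, 101 and 93.3 CPM against 197, 183 and 140 (0.89, adjusted p = 0.0013). The organs did not overlap in any of these 3 genes. Cd44, the adhesion receptor that marks antigen-experienced cells, differed less, by 0.35 (adjusted p = 0.0143): it was 73.3, 64.4 and 60.7 CPM against 103, 80.9 and 72.1, so its lowest spleen value lay below the highest lymph node value. Its call was lost without library 1, 3, 4 or 5. With 1 library left out at a time, 15 (without spleen vehicle) to 24 of the 31 genes were called, and none of the called genes was higher in lymph node.

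Among the other genes with the largest differences were Serpina3g, a protease inhibitor of activated T cells, at 0.907, 1.14 and 0.715 CPM in lymph node and 12.7, 10.2 and 13.3 in spleen (2.77, 2.48 to 3.05), and Myo1f, a myosin of leukocytes, at 2.21, 2.89 and 1.74 against 22.0, 19.1 and 18.3 (2.68). Plac8, expressed in many leukocytes, was 0.133, 0.569 and 0.153 CPM against 12.8, 5.18 and 5.62 (2.70), and Mmp9, the gelatinase best known from neutrophils, was 0.213, 0.119 and 0.0255 against 10.7, 3.92 and 5.79 (2.71). In Plac8 and Mmp9 the spleen vehicle library was the highest, and no lymph node library reached 1 CPM.

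Several genes of the effector and memory list outside the naming rule were picked after their values were seen, because they are abundant or belong to 1 family. Ahnak, a very large scaffold protein, was 157, 118 and 157 CPM against 293, 268 and 305 (1.01, adjusted p = 0.00016). The calcium-binding proteins S100a6 and S100a4 were higher in spleen by 1.55 and 1.16, the annexin Anxa2 by 1.17 and the galectin Lgals3 by 1.34. S100a6 shows the spread within spleen: its values were 12.4, 13.0 and 6.33 CPM there, against 2.80, 3.23 and 2.42 in lymph node. Vim, the intermediate filament vimentin, was not called (159, 181 and 171 CPM against 140, 151 and 158, adjusted p = 0.0656), and neither were Ly6c1 and Ly6c2.

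Most of the chemokine receptors that were called were higher in spleen. Cxcr6 was 3.49, 2.89 and 2.63 CPM in lymph node and 38.4, 19.1 and 23.9 in spleen (2.76, 2.48 to 3.04), and Cxcr3 was 2.51, 2.89 and 2.04 against 18.4, 13.8 and 12.2 (2.17, 1.89 to 2.45). Ccr2 was 0.533, 0.949 and 1.10 CPM against 14.2, 7.76 and 8.94 (2.57). These 3 receptors for inflammatory chemokines were higher in every spleen library than in any lymph node library. Ccr9, the receptor for the gut and thymus chemokine CCL25, was higher in spleen by 1.19 (3.81, 3.82 and 3.98 CPM against 14.7, 7.35 and 9.44), and Cxcr5, which draws cells to B cell follicles, by 0.80. In the other direction Ccr8, a receptor found on skin-homing T cells and on Treg, was 6.21, 7.90 and 8.73 CPM in lymph node and 3.02, 2.20 and 2.13 in spleen (-1.32, -1.63 to -1.0, adjusted p = 0.000377). Of 19 listed chemokine and sphingosine-phosphate receptors, 9 were called higher in spleen and Ccr8 alone was called higher in lymph node (2 members without library 2). Ccr7, Ccr4, Cxcr4 and S1pr1 were not called.

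Several NK receptor genes and genes of innate-like T cells had few reads in lymph node and more in every spleen library. Klrb1c, which encodes the NK1.1 receptor, was 0.480, 0.664 and 0.332 CPM in lymph node and 23.6, 10.9 and 13.4 in spleen (3.45, 3.04 to 3.85). Zbtb16 was 0.293, 0.332 and 0.179 CPM against 8.98, 5.82 and 8.92 (2.79, 2.45 to 3.14), and Xcl1, the chemokine lymphotactin, was 0.560, 0.854 and 0.562 against 17.2, 9.40 and 13.0 (3.07). Each of these 3 genes lay below 1 CPM in every lymph node library. Nkg7, a cytotoxic granule protein, was 1.36, 2.09 and 1.07 CPM against 21.2, 14.8 and 16.3 (2.88, 2.53 to 3.23), and Klrk1, which encodes NKG2D, was 0.880, 0.593 and 0.587 against 12.0, 7.35 and 9.38 (2.63). Klrc1, which encodes NKG2A, had 0, 0.0712 and 0 CPM in lymph node, the value of a few reads, and 7.11, 2.28 and 2.44 in spleen. Members with more reads in lymph node differed less, apart from Il2rb, given above. Prf1, the pore-forming protein perforin, was not called at 11, 11.6 and 11 CPM against 12.2, 12.9 and 12.9 (adjusted p = 0.271). Klrd1, which encodes CD94, was higher by 0.44 (12.1, 11.7 and 9.57 CPM against 20.5, 13.7 and 12.7), Cd7, a surface protein of T and NK cells, by 0.33 (21.3, 21.2 and 19.9 against 28.2, 23.7 and 27.3) and Txk, a kinase of the TEC family, by 0.26 (106, 112 and 107 against 120, 137 and 133). Of the 14 listed members of 32 on this list, 13 were called higher in spleen, but 6 of the 14 are in the table only through the spleen libraries. Cd8b1, which marks CD8 T cells, was 13.8, 14.4 and 14.1 CPM against 14, 14.3 and 13.5 and was not called.

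**Figure D2:**
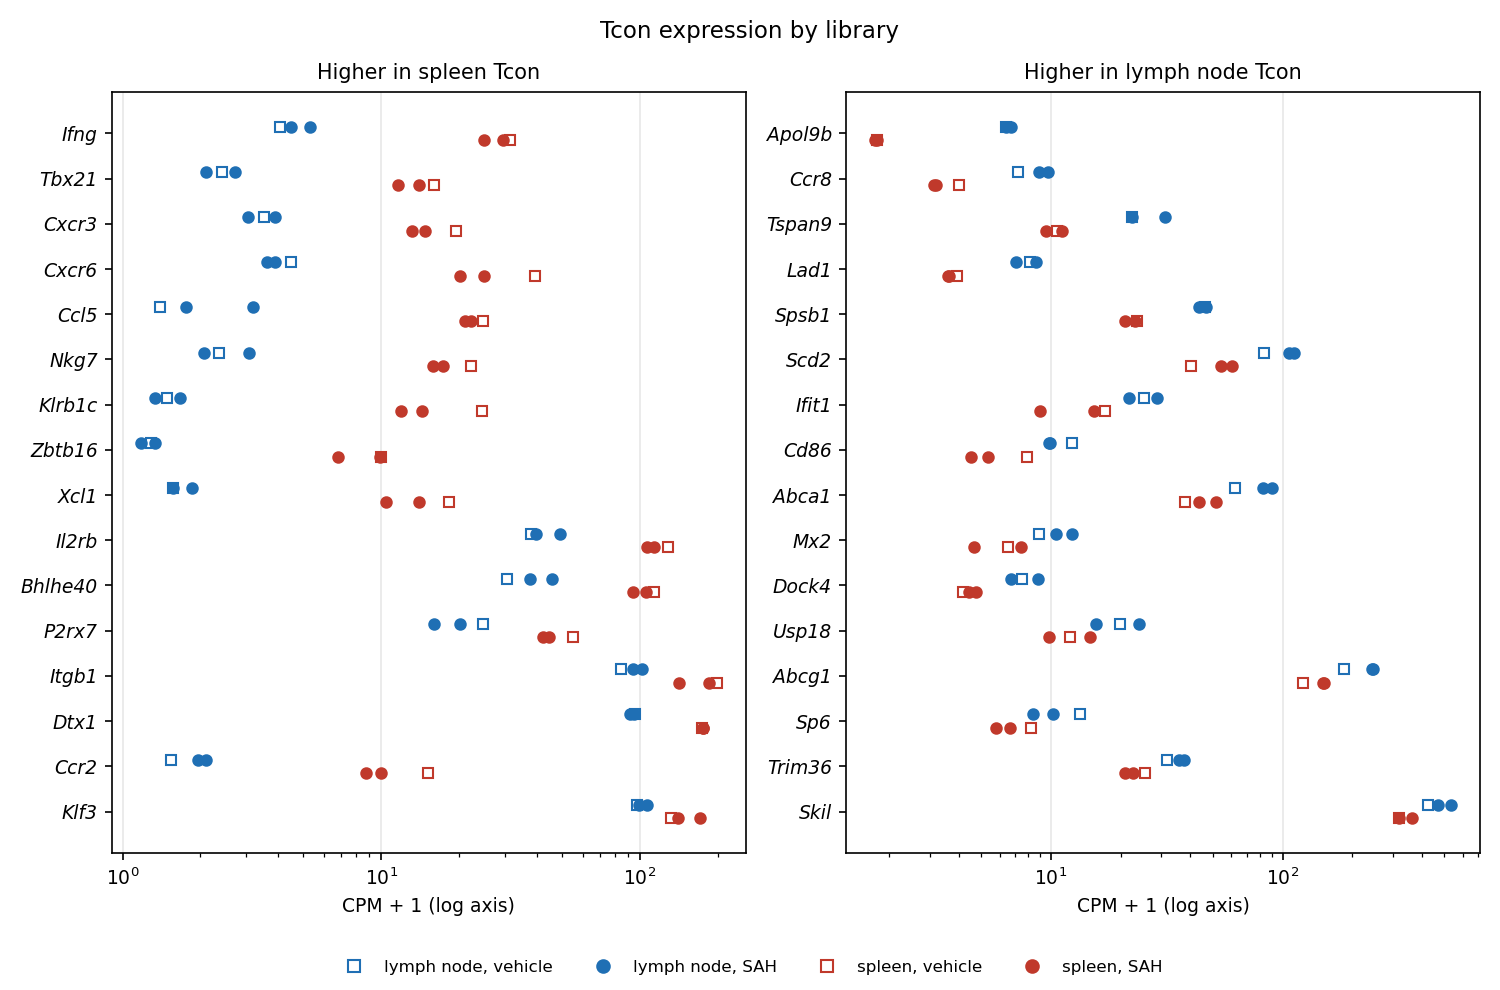
Points are CPM + 1 of each Tcon library on a log axis for 16 genes called higher in spleen and 16 called higher in lymph node; squares are vehicle and circles SAH, blue lymph node and red spleen. In Ifng, Cxcr6, Klrb1c and Apol9b the organs are far apart, while in Scd2 and Abca1 the gap between organs is nearer in size to the spread within each.

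Transcripts known from other blood cells were also higher in spleen. Jchain, the joining chain of antibodies made by plasma cells, was 0.373, 0.308 and 0.281 CPM in lymph node and 102, 36.7 and 38.9 in spleen (5.35, 4.87 to 5.82), the largest difference of any gene. Lyz2, the lysozyme of macrophages and neutrophils, was 0.0800, 0.664 and 0.179 CPM against 19.4, 22.7 and 18.1 (4.03, 3.70 to 4.36). The MHC class II gene H2-Aa of antigen-presenting cells was 0.427, 1.28 and 1.05 CPM against 14.1, 7.02 and 10.1 (2.55), and its invariant chain Cd74 was 3.39, 5.88 and 5.56 against 25.0, 15.2 and 19.6 (1.82). All 4 genes were separate between organs, and Jchain, H2-Aa and Cd74 were highest in the spleen vehicle library. Slc4a1, the anion exchanger of red cells, had no reads in lymph node and 4.21, 3.38 and 49.997 CPM in spleen, so its lowest spleen library was at least 42.3-fold higher than the 3 reads that a count of 0 allows in lymph node. Hbbt1, a symbol used for adult beta-globin, was 0, 0 and 0.0255 CPM in lymph node and 21.5, 9.61 and 134 in spleen. The second spleen SAH library was far above the other spleen libraries in both genes, and Slc4a1 lost its call without library 3.

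As whole lists, markers of these cells moved as follows. Of the listed B cell markers (7 of 26), 5 were called higher in spleen, and their summed level was 172 to 190 CPM in lymph node and 207 to 234 in spleen. Of the myeloid and dendritic markers (12 of 45) 7 were called, with sums of 233 to 273 CPM against 258 to 304. Of the plasma cell markers (6 of 19) 2 were called, Jchain and Prdm1, with sums of 422 to 461 CPM against 475 to 550, and of the red cell markers (7 of 29) Slc4a1 alone, with sums of 324 to 354 against 304 to 399. The CD8 list had 7 of 10 listed members called, with sums of 103 to 124 CPM against 152 to 182, but 5 of the 7 are also on the NK list, and without library 1 or 4 it had 5 members called higher in spleen and 1 in lymph node. The NK list's sum was 193 to 215 CPM in lymph node and 375 to 439 in spleen. Some members of these lists are in the table only through the spleen libraries, so the counts of calls carry that selection. Beside the NK members given above, they were 2 B cell, 4 myeloid, 1 plasma cell, 1 red cell and 2 CD8 members. Much of the B cell and myeloid sums comes from genes that T cells also express, Cd37 (169 and 170 CPM on average in lymph node and spleen) and Ctss (192 and 159), neither of them called. Defining B cell markers such as Ms4a1 and Ighm are not rows of the table, and Cd79a was 2.00, 1.33 and 1.43 CPM against 2.95, 2.13 and 2.36 (adjusted p = 0.0672). These markers moved with the organ in the same direction as the effector and NK genes above, and their part in those results was not tested. With every gene on a list of other cells left out of the count, 436 called genes remained, 292 of them higher in spleen and 70 past 2-fold. This is a recount with no new fit, and it does not remove transcripts of such cells that are on no list.

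**Figure D3:**
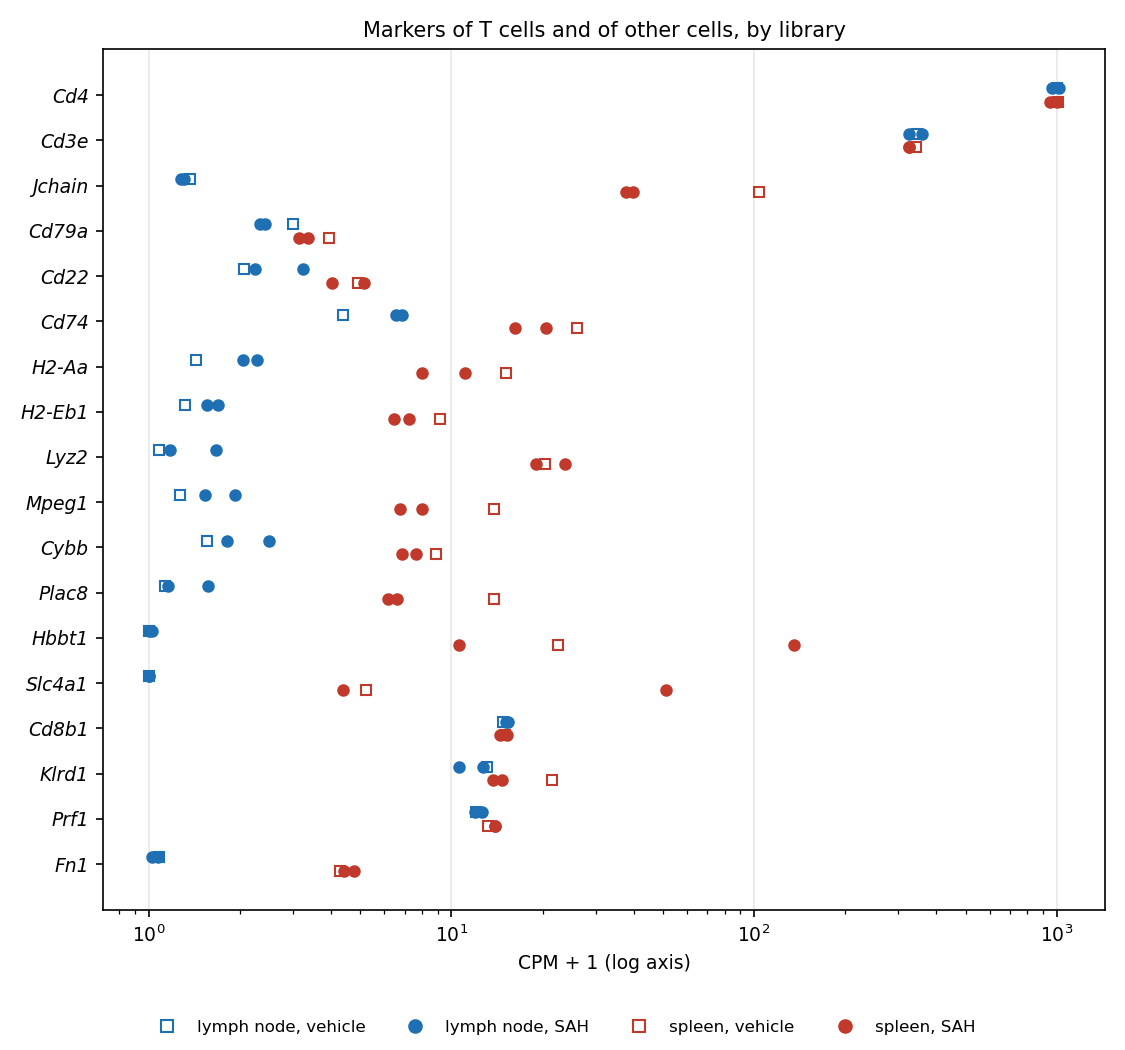
CPM + 1 of each Tcon library on a log axis for 2 T cell genes and 16 markers of other cells, with squares for vehicle and circles for SAH, blue for lymph node and red for spleen. Cd4, Cd3e, Cd8b1 and Prf1 sit at like levels in both organs, whereas Jchain, Lyz2, H2-Aa, Hbbt1 and Slc4a1 are near 0 CPM in lymph node and spread over spleen libraries.

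Of the 15 listed genes that respond to or break down extracellular purines and NAD, 8 were called higher in spleen and none in lymph node. Over all genes tested 3.28% were called higher in spleen. P2rx7, the ATP-gated channel of T cells, was 23.8, 19.2 and 15.1 CPM in lymph node and 54.2, 41.2 and 43.4 in spleen (1.23, 1.04 to 1.42, adjusted p = 1.62e-05). Art2a and Art2b, surface ADP-ribosyltransferases that act on P2RX7, were higher by 0.96 and 0.71; they are close copies and may share reads. Entpd1, which encodes CD39, was 0.427, 0.712 and 0.408 CPM against 3.64, 2.97 and 2.95 (1.47), Cd38 was higher by 1.26, and Nt5e, which encodes CD73, by 0.47. P2rx7 was highest in the vehicle library of each organ, and its organs did not overlap. P2rx4, P2ry10 and Enpp1 were not called. The count was 5 of 15 without library 1, 3, 4 or 5, and 1 of the 15 (Entpd1) is in the table only through the spleen libraries.

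Some genes of quiescent and recirculating T cells were higher in spleen too. Klf3, a Kruppel-like repressor, was 96.5, 98.2 and 106 CPM in lymph node and 131, 139 and 169 in spleen (0.54, adjusted p = 0.00212), and the survival factor Bcl2 was 158, 176 and 184 against 196, 234 and 221 (0.33). With Ccr9 they were the 3 genes called among 21 of the naive and central memory list, whose median was 0.0581, and Lef1 and Klf2 were not called. Dtx1, a Deltex ubiquitin ligase induced by Notch, was among the most even genes within organs, at 94.8, 91.0 and 94.0 CPM in lymph node and 173, 174 and 175 in spleen (0.89, 0.79 to 1.00, adjusted p = 3.43e-06). Dtx4 was higher in spleen by 1.05 (7.57, 8.32 and 7.58 CPM against 20.9, 13.9 and 17.6) and Dtx3 by 0.25. The receptors Notch1 and Notch2 were not called, so the called genes of the Notch list were 3 of 25, all of them Deltex genes. Over all genes tested 3.28% were called higher in spleen. Of the GIMAP GTPases, which support lymphocyte survival, 5 of 8 were called higher in spleen, led by Gimap7 (54.5, 32.3 and 28.7 CPM against 85.9, 49.5 and 46.6; 0.64, adjusted p = 0.000164). In Gimap7 the vehicle library was highest in each organ and the organs overlapped, and the list's count fell to 1 of 8 without library 1, 3, 4 or 5 and 3 of 8 without library 6.

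Immediate-early genes, which T cell receptor signals and cell handling both induce, were called in 9 of 41 listed members, all higher in spleen. The share called higher in spleen over all genes tested was 3.28%. Atf3, a stress-induced transcription factor, was 4.32, 7.87 and 6.64 CPM in lymph node and 16.4, 17.3 and 15.9 in spleen (1.30, adjusted p = 0.000163). Nr4a1, which follows receptor signal strength, was 419, 551 and 491 CPM against 530, 748 and 787 (0.49, adjusted p = 0.00161), with the spleen vehicle library inside the lymph node range. Klf6 was 957, 1001 and 1141 CPM against 1330, 1355 and 1378 (0.39). Fos and Fosb were not called, with adjusted p of 0.308 and 0.515. Bhlhe40, a repressor of the clock and of cytokine programs, was 29.6, 44.5 and 36.6 CPM against 112, 105 and 93.0 (1.48, 1.21 to 1.75, adjusted p = 5.08e-05) and was separate between organs. The count of immediate-early genes was 4 without library 3 and 6 without library 5 or 6, and without library 2 it was 8 higher in spleen and 2 higher in lymph node.

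Heat shock genes differed widely between libraries of the same organ. Hspa1a was 29.3, 86.1 and 165 CPM in lymph node and 40.2, 267 and 306 in spleen, and Hspa1b was 37.5, 112 and 200 against 49.95, 327 and 369; these neighbouring copies may share reads. In both genes the vehicle library was lowest in each organ, spleen vehicle lay within the lymph node range, and the organ difference with treatment as a term was 0.99 (adjusted p = 0.0299) and 0.94 (adjusted p = 0.0271). Of 31 listed chaperones 6 were called, all higher in spleen, beside 3.28% of all genes tested. None was called without library 3, and 3 and 1 were called without libraries 5 and 6.

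On the lymph node side the genes were fewer and the differences smaller. Apol9b, an apolipoprotein L gene induced by interferon, was 5.39, 5.72 and 5.39 CPM in lymph node and 0.780, 0.743 and 0.773 in spleen, a difference of -1.88 (-2.12 to -1.64, adjusted p = 6.01e-06). Its copy Apol9a, added after its values were seen, was 4.53, 5.12 and 4.31 CPM against 0.662, 0.666 and 0.585 (-1.79), and the copies may share reads. Both copies lay below 1 CPM in every spleen library and are the 2 genes in the table only through lymph node. Their calls carry that selection. Tspan9, a tetraspanin, was 21.3, 21.3 and 30.1 CPM against 9.62, 8.53 and 10.2 (-1.26), and Lad1, a basement membrane anchoring protein, was 7.15, 7.59 and 6.08 against 2.93, 2.61 and 2.61 (-1.09). Values of these genes were close within spleen and did not overlap with lymph node. Spsb1, an adaptor of a ubiquitin ligase, was 45.2, 42.5 and 45.7 CPM against 22.6, 22.2 and 19.8 (-1.02, -1.16 to -0.87, adjusted p = 1.09e-05). Cd86, a ligand of CD28 and CTLA-4, was 11.4, 8.80 and 8.88 CPM against 6.85, 4.36 and 3.53 (-0.88), opposite in direction to the MHC class II genes. Dock4, a guanine exchange factor, was lower in spleen with a difference of -0.78, Sp6 with -0.62 and Trim36 with -0.61.

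Interferon-stimulated genes, which cells switch on through STAT2 and IRF9, were called in 7 of 60 listed members, all higher in lymph node, and only 7 of the 60 differences were above 0. The median was -0.193, against -0.00187 over all genes. Ifit1, which binds foreign RNA, was 24.3, 27.6 and 20.7 CPM in lymph node and 16.1, 14.3 and 7.94 in spleen (-0.91, -1.33 to -0.50, adjusted p = 0.0236). Mx2 was 7.87, 11.4 and 9.55 CPM against 5.51, 6.43 and 3.66 (-0.79, adjusted p = 0.0284), and Usp18, which dampens interferon receptor signalling, was 18.9, 22.9 and 14.7 against 11.1, 13.8 and 8.78 (-0.70, adjusted p = 0.0442). The organs did not overlap in these genes, and the second spleen SAH library was lowest in all 3. Oas2 was called with a difference of -0.58, Gbp6 with -0.33, Samd9l with -0.26 and Slfn8, named to complete the count, with -0.24. Ifit3 differed by -0.95 but was not called (adjusted p = 0.0837). The count was 4 without library 1, 3 without library 2 (with 1 more member called higher in spleen), 3 without library 3, 13 without library 5 and 2 without library 6, and the members above 0 were 16 without library 2 and 15 without library 6. Ifit1 lost its call without library 3, Mx2 without library 2 or 3, and Usp18 without library 1, 2, 4 or 6.

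**Figure D4:**
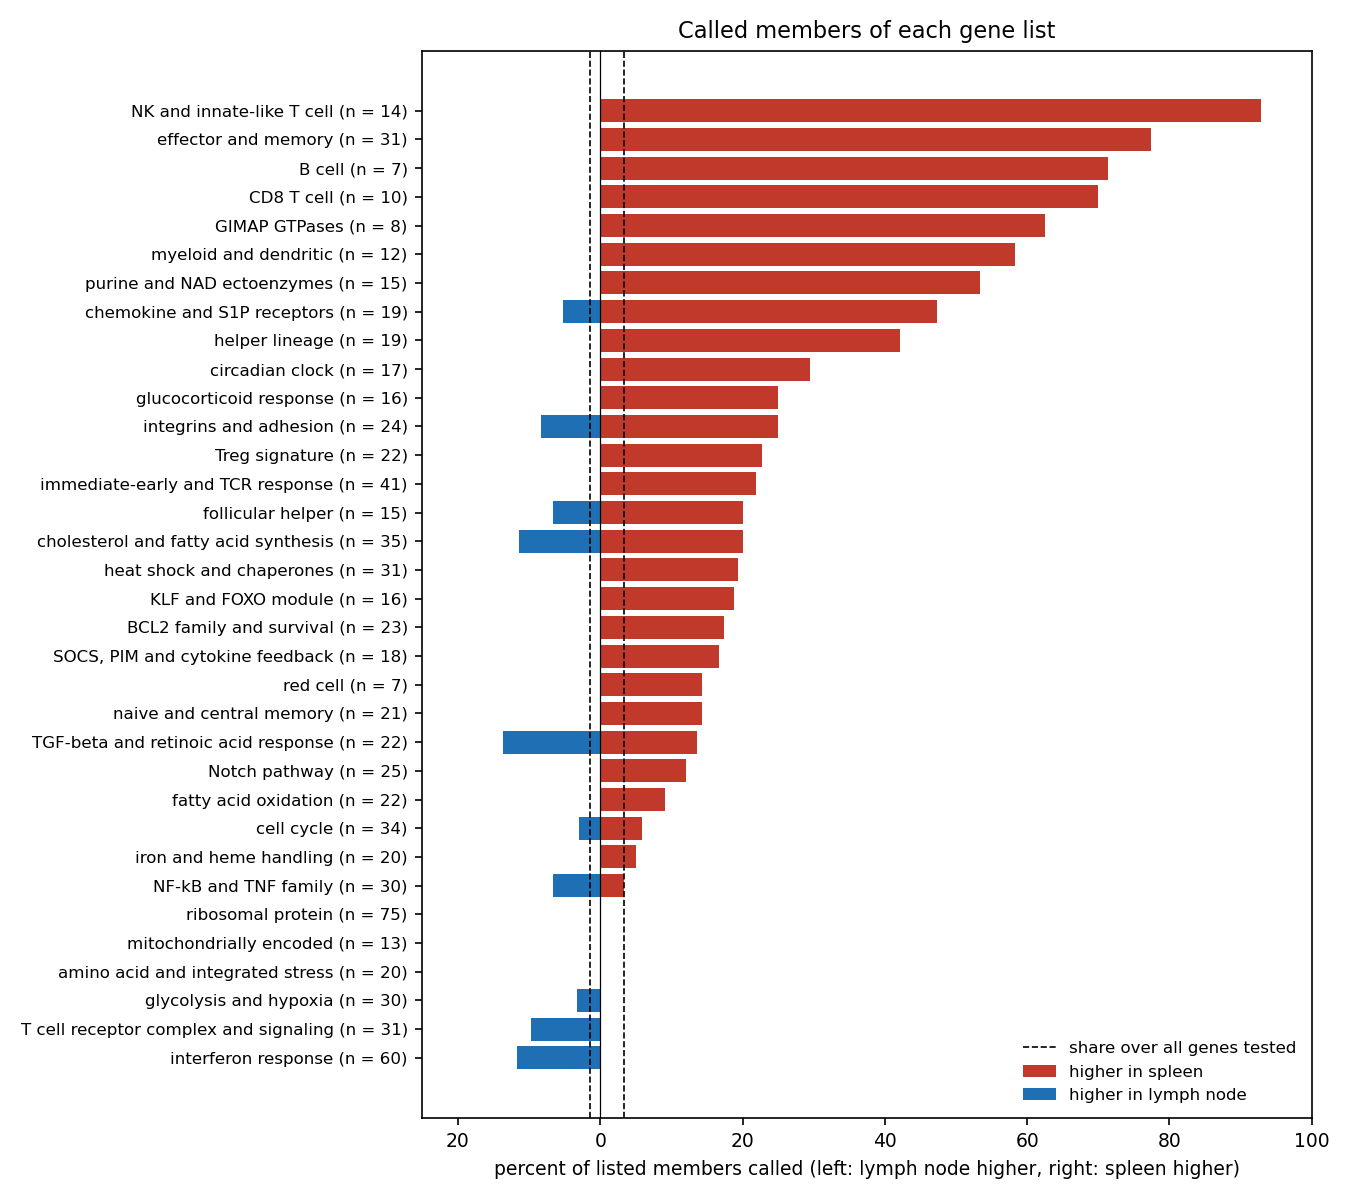
Bars give the percent of the listed members that were called, for each gene list with at least 7 of them, to the right for higher in spleen and to the left for higher in lymph node; dashed lines are the shares over all 9886 genes (3.28% and 1.46%). The interferon and T cell receptor lists have calls only to the left, the NK and effector lists only to the right, and the ribosomal protein list has none in 75 genes.

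Promoters were read for an interferon element, as a description with no test. The element, a pair of GAAA repeats 2 bases apart on either strand, was searched in the 250 bases before the RefSeq start. It was in 14 of 110 promoters of genes called higher in lymph node (12.7%), 6 of 243 of genes called higher in spleen (2.47%) and 218 of 7653 of all tested genes with a promoter entry (2.85%). In the interferon list itself it was in 21 of 42 (50%). The 3 promoters shown here belong to genes called higher in lymph node, from RefSeq on GRCm38.p6, 5′ to 3′, with each match in capitals as read on the gene's strand. Ifit1 lies at chr19:34640639-34640888 on the plus strand with matches 104 and 85 bases before the start, Apol9b at chr15:77728822-77729071 on the plus strand with 2 overlapping matches, at 37 and 31 bases, and Slfn8 at chr11:83020811-83021060 on the minus strand with 1 match at 48 bases.
Ifit1: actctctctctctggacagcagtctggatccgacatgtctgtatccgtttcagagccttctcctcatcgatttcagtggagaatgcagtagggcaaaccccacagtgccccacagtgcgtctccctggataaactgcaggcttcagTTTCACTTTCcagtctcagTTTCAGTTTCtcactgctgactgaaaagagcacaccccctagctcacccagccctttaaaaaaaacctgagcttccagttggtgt
Apol9b: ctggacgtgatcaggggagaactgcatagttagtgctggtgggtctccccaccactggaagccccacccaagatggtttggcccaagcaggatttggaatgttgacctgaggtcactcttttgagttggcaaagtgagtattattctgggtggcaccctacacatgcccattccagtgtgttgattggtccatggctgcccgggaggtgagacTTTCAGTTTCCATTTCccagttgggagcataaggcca
Slfn8: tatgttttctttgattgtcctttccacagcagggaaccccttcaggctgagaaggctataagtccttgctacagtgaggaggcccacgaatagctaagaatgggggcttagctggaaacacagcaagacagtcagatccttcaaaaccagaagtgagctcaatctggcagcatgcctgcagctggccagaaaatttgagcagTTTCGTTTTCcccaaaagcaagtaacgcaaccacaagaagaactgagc
The Apol9a promoter held the same overlapping pair as Apol9b, beginning 59 and 53 bases before its start. Both copies count among the 14 promoters of genes called higher in lymph node. Apol7e also held the element: it was 185, 186 and 174 CPM in lymph node and 137, 128 and 120 in spleen (-0.50, adjusted p = 0.000387), and was added after its values were seen. Samd9l, called higher in lymph node, had no match, which says only that these letters are not in that window. The AP-1 letters TGANTCA were in 21 of 243 promoters of genes called higher in spleen (8.64%), 3 of 110 of genes called higher in lymph node (2.73%) and 287 of 7653 of all (3.75%).

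Genes of cholesterol handling were called in both directions. Cells short of sterol raise uptake and synthesis through SREBP-2, whereas cells rich in sterol raise efflux through LXR. The 7 members called higher in spleen included the synthesis enzymes Sqle (0.40), Idi1 (0.38) and Lss (0.34) and the factor Srebf2 (0.30), the last 3 chosen after their values were seen. The efflux transporter Abca1 was 61.3, 89.0 and 81.3 CPM in lymph node and 37.0, 50.8 and 42.6 in spleen (-0.81, -0.97 to -0.64, adjusted p = 0.000117), and Abcg1 was 184, 243 and 244 against 122, 151 and 149 (-0.67, -0.77 to -0.56). Scd2, a fatty acid desaturase, was 82.5, 111 and 105 CPM against 39.4, 59.4 and 53.3 (-0.97, -1.11 to -0.84, adjusted p = 9.23e-06). Mylip, a ubiquitin ligase induced by LXR, was called with -0.24. The 4 genes called higher in lymph node were thus Abca1, Abcg1 and Mylip, which are known LXR targets, and the desaturase Scd2. Of the 35 listed members 24 were not called, and a part of LXR or SREBP-2 in these differences was not tested. Without 1 library, the calls higher in spleen ranged from 2 (without library 3) to 9 (without library 5) and those higher in lymph node from 3 to 4; the spleen calls were 4 without library 1 or 4 and 3 without library 2 or 6. Abca1, Abcg1 and Scd2 were called in every such fit.

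Of 22 listed genes of the response to TGF-beta and retinoic acid, 3 were called higher in lymph node (5 without library 2) and 3 higher in spleen. Skil, a SMAD co-repressor that TGF-beta induces, was 424, 468 and 533 CPM in lymph node and 317, 363 and 317 in spleen (-0.51, -0.67 to -0.36, adjusted p = 0.0019), its relative Ski was 277, 262 and 299 against 217, 217 and 226 (-0.34), and Smurf2, a ubiquitin ligase for SMADs and the receptor, was 183, 195 and 219 against 139, 160 and 166 (-0.36). The organs did not overlap in these 3 genes. Smad7, an inhibitor of the same pathway that was also named after its values were seen, differed by -0.15 and was not called (adjusted p = 0.224), and neither were Tgfb1, Tgfbr1 and Tgfbr2. The members called higher in spleen were Ccr9, Itga4 and P2rx7. Of 31 genes of the T cell receptor complex and its signalling, 3 were called, all higher in lymph node: the membrane adaptor Pag1 (-0.26), Ptpn6, which encodes the phosphatase SHP-1 (-0.23), and Ubash3a (-0.20). Each of the 3 kept its call in at most 1 of the 6 fits without 1 library, and no member of the list was called without library 1, 3, 4, 5 or 6.

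Several lists had no called member in either direction: ribosomal proteins (75 genes, median 0.0523), mitochondrially encoded genes (13) and genes of the amino acid and integrated stress response (20, among them Atf4 and Ddit3). Without library 2, the ribosomal proteins had 9 members called higher in spleen and 1 higher in lymph node, with a median of 0.116. For glycolysis and hypoxia 1 of 30 was called, and 2 without library 2. Over all genes tested 4.73% were called, and at that share lists of 13, 20 or 30 genes would hold few or no calls.

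The organ difference did not pass the test for a change with treatment in any gene. The limma interaction of organ and treatment called 0 of 9886 genes (0%), with 504 genes at an unadjusted p below 0.05 and a smallest adjusted p of 0.311. That test rests on 2 residual degrees of freedom and a single vehicle library in each organ.

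The organ difference of Tcon was then set against that of Treg from the same organs, over the 9784 genes in both tables. Treg had 1531 genes called of 10405 (14.7%). Of the 448 Tcon calls in both tables, 405 had the same sign in Treg. The share of same signs over all 9784 genes was not computed, so how far this count differs from it is not known. In Treg, 268 were called in the same direction and 12 in the opposite direction. The difference between cell types, tested as an interaction over all 12 libraries, was called in 143 genes (1.46%), and in 703 with the library number as a replicate block. Among the 448 Tcon calls it was called in 71, of which 65 were higher in spleen Tcon, as were 324 of all 468 Tcon calls. These genes were chosen by the Tcon difference that the interaction contains. A larger share among them than over all genes is therefore no separate result.

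Several effector genes had a larger organ difference in Tcon than in Treg. Nkg7 was higher in spleen Tcon by 2.88 and lower in spleen Treg (-0.81), an interaction of 3.69 (adjusted p = 1.69e-07). Cxcr6 differed by 2.76 in Tcon and -0.06 in Treg (adjusted p of the interaction 2.46e-06), Il2rb by 1.46 and -0.08 (7.12e-06), and Bhlhe40 by 1.48 and 0.14 (0.000536). Ifng differed by 2.64 and 0.48 (3.17e-06) and Tbx21 by 2.51 and 0.75 (0.000354), so in these 2 genes spleen was higher in both cell types. Ccr8, higher in lymph node Tcon, differed by -1.32 and -0.32 (0.0233). Xcl1, Zbtb16, Klrk1 and Il12rb2 have no row in the Treg table. A difference on this scale depends on the starting level, and Nkg7 averaged 1.51 CPM in lymph node Tcon and 20.04 in lymph node Treg.

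The organ differences of other genes did not pass that test. Apol9b was -1.88 in Tcon (-2.12 to -1.64) and -2.17 in Treg (interaction adjusted p = 0.335), Scd2 was -0.97 and -1.08 (0.695), Abcg1 -0.67 and -0.65 (0.974) and Skil -0.51 and -0.51 (0.994). Dtx1 was 0.89 and 1.11 (0.129, and 0.0185 with the replicate block). Abca1 was -0.81 and -1.08 (0.262, and 0.00909 with the block). Transcripts known from other cells fell on both sides of the threshold. Lyz2 was 4.03 and 4.06 (0.986), H2-Aa 2.55 and 2.66 (0.960) and Jchain 5.35 and 6.03 (0.445, and 0.0106 with the block). Cd74 was 1.82 and 0.44 (0.0141) and Mmp9 2.71 and 0.56 (0.000162), so both passed the test. A p that misses the threshold does not show that these differences are equal.

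**Figure D5:**
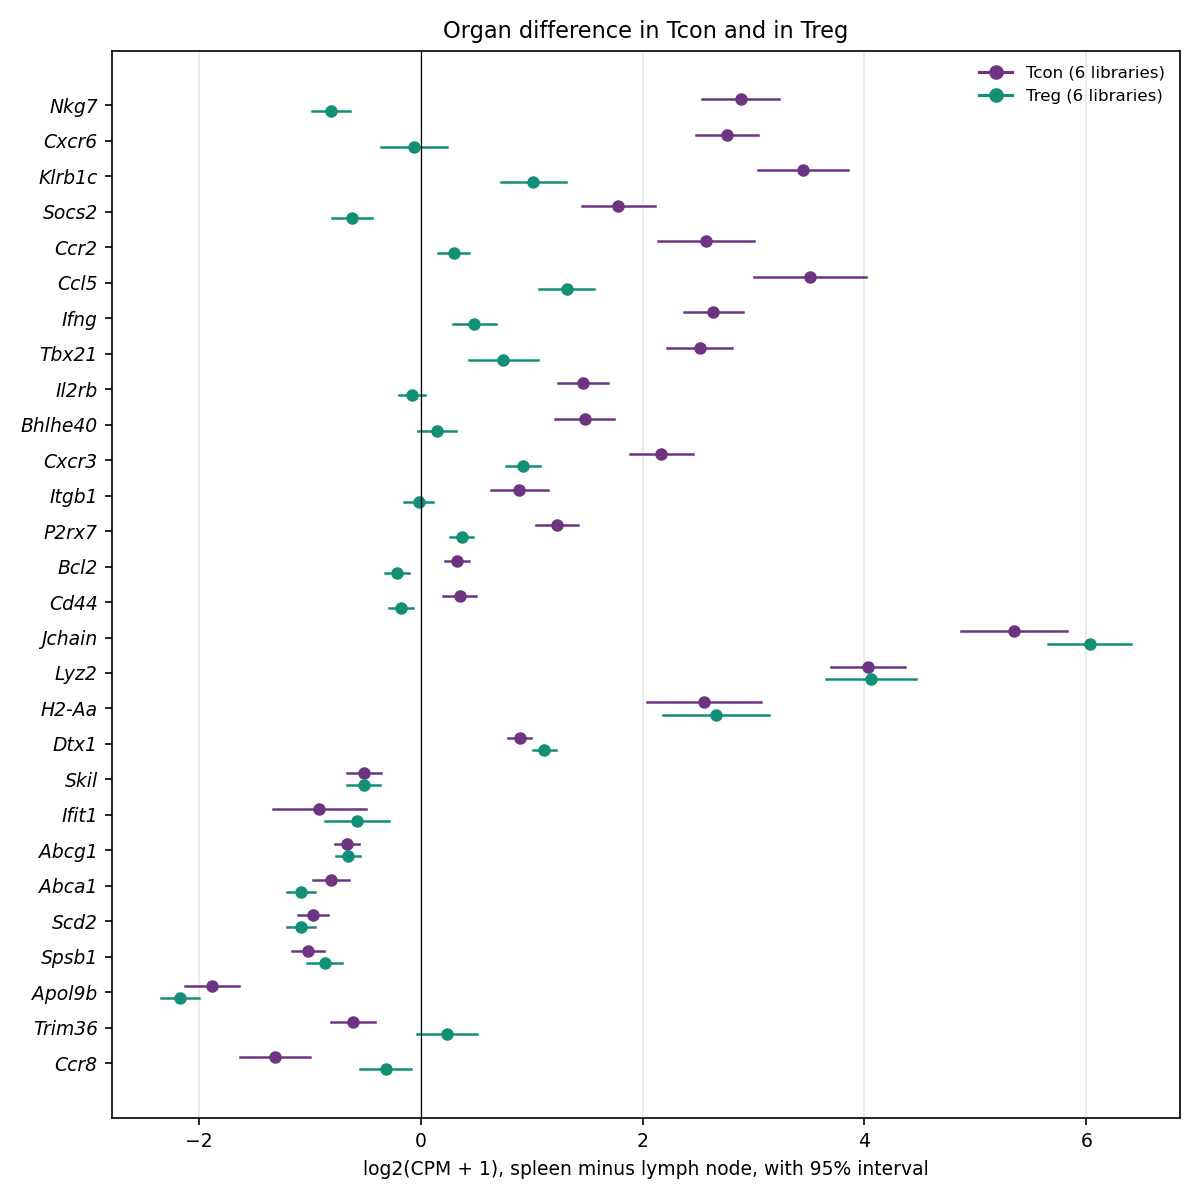
Differences of spleen minus lymph node in log2(CPM + 1), with their 95% intervals from limma, in Tcon (purple) and Treg (green), 6 libraries each. The genes from Nkg7 to Cd44 lie further right in Tcon than in Treg, those from Jchain to Apol9b did not pass the interaction test without the block, and Trim36 and Ccr8 lie further left in Tcon.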

How the data were processed

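RNA was sequenced from 6 Tcon and 6 Treg libraries made with a stranded mRNA kit, per the labels' protocols. TopHat, Bowtie, edgeR and mm10 are named in the submitters' processing notes without versions. The annotation, like the counter, is not given in the sources used here. Per the file headers, the authors deposited a normalized signal per gene and library in CPM. Column totals were 971928 to 1021433, so each library carries a further scaling factor. All values were whole multiples, within 0.1, of the worth of 1 read (0.0209 to 0.0267 CPM), and these steps gave the depth. The deposited log2 values, scores and p-values belong to the authors' comparison of treatment and were not used.

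Differences were fitted in R 4.3.3 with limma 3.58.1 (lmFit, eBayes with an intensity trend) on log2(CPM + 1), with organ and treatment as terms and 3 residual degrees of freedom, keeping genes at 1 CPM or more in 2 libraries (0 genes removed). Tests are two-sided with Benjamini-Hochberg adjustment over 9886 genes. The interaction of cell type and organ used all 12 libraries. Treg and Tcon libraries of the same number deviated together in that fit (correlations of residuals 0.310 to 0.561, over 8939 genes). The fit makes the residuals of the vehicle libraries 1 and 4 mirror each other, so their correlations are 1 comparison. The numbers were therefore used as a block in an alternative fit, but what libraries of the same number share was not tested. Values with the block are given where they change a call. The script was tested on simulated data. Motifs were searched in RefSeq promoters (GRCm38.p6).

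Named genes were, among called genes with no overlap and a mean of at least 5 CPM in the higher organ, the 15 with the largest differences in each direction, with the 6 largest called and the first 3 uncalled members of each of 38 lists, the 4 highest markers of other cells, and fixed T cell markers such as Cd4, Cd3e, Foxp3, Il2ra, Ccr7 and Cd44. Some genes that this rule names are not reported here. The comparison and the lists were chosen with earlier results of these data known. Of the symbols, 272 share all their values with another symbol. Alternatives were other pseudocounts, filters, scalings and model terms, each library left out, and 1 symbol for each gene.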

Additional observations from a re-analysis of the deposited data

Results flagged for a closer look

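The organ difference of 35 genes named here differed between Tcon and Treg by the limma interaction test over all 12 libraries. These 35 were selected by an adjusted p below 0.05 in that test, and all were also below 0.05 with the replicate block. Among them, Amd1, Amd2, Endod1, Hpgds, Il17rb, Kif11, Myb and Ncf1 were named after their values were seen, for opposite directions in Tcon and Treg. Over all 9784 genes tested, 143 passed (1.46%). Because of this selection, the count of 35 is no separate result. Values are the organ difference of Tcon minus that of Treg on the log2(CPM + 1) scale. Among chemokine, cytokine and receptor genes it was 2.82 for Cxcr6, 2.28 for Ccr2, 2.19 for Ccl5, 2.15 for Ifng, 1.54 for Il2rb, 1.54 for Il17rb, 1.48 for Il18rap and 1.251 for Cxcr3. For NK receptor, cytotoxic and regulatory genes it was 3.69 for Nkg7, 2.43 for Klrb1c, 2.40 for Socs2, 1.97 for Serpina3g, 1.77 for Tbx21 and 1.33 for Bhlhe40. For surface enzymes and adhesion genes it was 1.61 for Entpd1, 1.17 for Cd38, 0.91 for Itgb1, 0.86 for P2rx7, 0.63 for Nt5e and 0.53 for Cd44. The remaining genes with a value above 0 were Mmp9 with 2.15, Myo1f with 1.47, Cd74 with 1.38, Ncf1 with 0.89, Endod1 with 0.86, Ahnak with 0.76, Kif11 with 0.69, Myb with 0.67, Tgfbr1 with 0.55 and Bcl2 with 0.54. Tgfbr1 was not called in Tcon and was lower in spleen Treg. In the other direction the value was -0.9995 for Ccr8, -0.94 for Hpgds, -0.85 for Trim36, -0.56 for Amd2 and -0.56 for Amd1.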

How the results depend on the processing

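Among called genes named here, no direction changed under any alternative run, but 12 of them have no value under the filter of 5 CPM in 3 libraries. In genes whose organs do not overlap, leaving out 1 library or changing the pseudocount cannot reverse the direction. Part of the naming rule asked for no overlap, so the unchanged directions are no separate result. The 468 calls (324 higher in spleen, 144 higher in lymph node) became 277 (215 and 62) without the treatment term and 262 (204 and 58) with SAH libraries only, which leaves fewer samples. With 1 library left out they ranged from 215 (without library 3) to 628 (without library 2), from 176 to 395 higher in spleen, from 39 to 233 higher in lymph node and from 91 to 101 past 2-fold. They were 263 without library 1, 268 without library 4 and 301 without library 6, and those higher in lymph node were 71 without library 5 and 55 without library 6. Where a vehicle library is left out, the other vehicle library takes up the treatment term, so the organ difference rests on SAH libraries. A filter of 5 CPM in 3 libraries left 57 of the 93 genes past 2-fold. Other pseudocounts, scalings, 1 symbol for each gene and no intensity trend moved these counts by less than 1.5 times. The calls of Tcon minus Treg were 143, 703 with the replicate block, and 79 to 287 with 1 library left out (287 without Tcon library 2, 88 without Tcon library 3, 85, 79, 94 and 87 without Treg libraries 1, 2, 3 and 4). No paired analysis was possible between organs because they share no library number. The count tests of edgeR and DESeq2 were not run, since the deposited values are scaled CPM.

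Of 100 called genes named here, 63 were called in all 6 fits without 1 library. Beside those given in the report, calls were lost without library 3 (Cxcr5, Itga4 and Ski), 3 or 4 (Anxa2), 3 or 6 (Hspa1b), 1 or 3 (Sp6), 3, 5 or 6 (Hspa1a and Txk), 1, 4 or 6 (Oas2), 2, 3 or 6 (Sqle), 1, 3, 4 or 5 (Klrd1, Nt5e and Prdm1), 1, 3, 4 or 6 (Cd7 and Samd9l), 2, 3, 5 or 6 (Gbp6), any except 2 (Dtx3 and Mylip), any except 5 (Lss, Slfn8 and Srebf2) and any of the 6 (Idi1). The cause was not tested.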

Other observations

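In 12 genes the organ difference was called in both cell types with opposite directions, and 8 of them, named after their values were seen, are not described above. Il17rb, a chain of the interleukin-25 receptor, was 2.91, 2.06 and 1.74 CPM in lymph node Tcon and 6.59, 3.82 and 4.45 in spleen Tcon (0.87), and differed by -0.67 in Treg. Hpgds, which makes prostaglandin D, was 4.51, 4.41 and 4.95 CPM against 2.53, 2.92 and 2.49 (-0.63), and differed by 0.31 in Treg. Myb, a transcription factor of progenitor and memory T cells, was 67.7, 76.4 and 75.2 CPM against 86.2, 90.8 and 85.0 (0.25), and differed by -0.42 in Treg. The others were Endod1 (0.42 in Tcon and -0.45 in Treg), Ncf1 (0.45 and -0.44), the mitotic kinesin Kif11 (0.45 and -0.24), and Amd1 and Amd2 (both -0.28 and 0.28), copies with similar values that may share reads, which was not tested. Socs2, a feedback inhibitor of cytokine signalling, was 0.187, 0.166 and 0.281 CPM in lymph node Tcon and 3.73, 2.54 and 3.30 in spleen Tcon (1.78), and differed by -0.62 in Treg. It is in the Tcon table only through the spleen libraries, so its call in Tcon carries that selection. Its starting levels were also far apart, with means of 0.211 CPM in lymph node Tcon and 45.1 in lymph node Treg. Calls in Tcon were lost without library 3 for Hpgds, without library 1, 3, 4 or 5 for Myb and Endod1, without library 1, 3, 4 or 6 for Kif11, without library 3, 5 or 6 for Amd1 and Amd2 and without any 1 library for Ncf1.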
